A study of Mus musculus with 6 samples.

Results

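Among the genes listed for the injured ventrotemporal (VT) retina were 10 genes of nasal and orbital gland secretions, out of 701 genes in the table. They are 5 genes of the odorant-binding lipocalin group (Obp1a, Obp1b, Obp2a, Gm14743 and Gm14744), 3 genes of the BPI-fold group (Bpifa1, Bpifb9a and Bpifb9b), the mucin gene Muc5b and the cytochrome P450 gene Cyp2g1. The members were chosen by name from a table whose genes the authors had selected on the same WT and Slc6a4-/- samples, so the genotype differences given here are descriptions and were not tested. All 10 were found by symbol.

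Bulk RNA-seq compared peripheral VT retina from C57BL/6 mice at postnatal day 56, either wildtype (WT) or Slc6a4-/-, which lack the serotonin transporter SERT. Every mouse of both genotypes had the optic nerve of the left eye crushed, and the injured retina was taken 24 hours later, so no uninjured retina was compared. There were 3 samples of each genotype, every one a pool of tissue from 3 animals, and errors therefore describe the scatter of pools and not of single mice. The Slc6a4-/- mice lack the transporter in all tissues, not in the retina alone. Values of 3 samples are given in the order of their numbers. Slc6a4 itself had 1516, 1397 and 1548 reads in WT and 0, 0 and 3 reads in Slc6a4-/-, which matches the genotype labels.

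Odorant-binding proteins are small secreted lipocalins that carry odorants and other oily molecules in nasal mucus. BPI-fold proteins such as BPIFA1 are released by glands and surface cells of the nose and upper airway and take part in the defence of wet surfaces against microbes. The nasal glands lie beside the orbit, and the orbit itself holds the lacrimal and Harderian glands, which secrete onto the eye. The files do not give a tissue of origin for these reads, and the name of the group rests on this background.

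The tissue label was checked against markers of retina. Of 15 genes fixed as retina markers 8 were in the table, and their scaled counts summed to between 45140 and 63580 per sample. A scaled count is the read count divided by the size of the library relative to the mean of all 6. Cone opsins Opn1sw and Opn1mw, the bipolar cell receptor Grm6 and the neurofilament gene Nefl were among them, so the samples held retinal RNA at high level. The library sizes implied by the table were estimates and ranged from 75.3 to 94.0 M reads. By the fit used, the 3 Slc6a4-/- libraries were all above the 3 WT libraries, narrowly so for Slc6a4-/- sample 3. It stood at 81.5 M reads against 79.5 M in WT sample 2. By the fit first planned, described below, Slc6a4-/- sample 3 was the smallest library, at 46.6 M reads.

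All 10 secretion genes had few reads in every sample. The mean over the 6 samples ranged from 4.67 reads for Cyp2g1 to 32.5 reads for Obp1b, against a median of 405.7 reads over the 701 genes. The highest value of any member in any sample was 73 reads (Obp1b in WT sample 3), and 3 of the 60 values were 0. At such read numbers counting error alone is wide, and intervals given here cover that error only.

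In the Slc6a4-/- VT retina the mean of each of the 10 genes was lower than in WT. The 10 differences ranged from -2.71 (Gm14743) to -1.26 (Cyp2g1) on the scale of log2(scaled count + 1), with a median of -1.56 and standard errors of 0.42 to 1.02. Of all 701 genes 304 were lower and 397 higher in Slc6a4-/-, and the median difference was 0.30. A mean at least 2-fold lower in Slc6a4-/- was found for all 10 members and for 39 of the 701 genes (5.56%), a share that includes the members. Scaled counts of the 3 Slc6a4-/- samples all lay below those of the 3 WT samples for 4 of the 10 members (Gm14744, Bpifa1, Bpifb9b and Muc5b) and for 167 of the 701 genes (23.8%). Because the same contrast chose the genes, nothing is read from these counts against their backgrounds. In bulk samples, fewer cells of a type and less RNA per cell cannot be told apart.

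**Figure D1:**
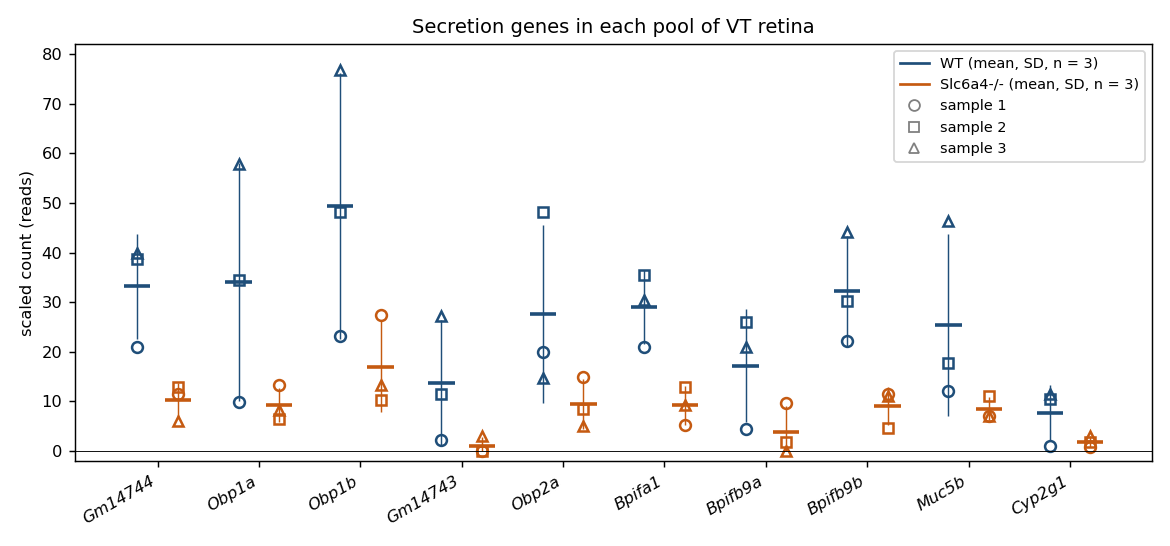
Scaled counts (reads, vertical axis) of the 10 secretion genes in the 3 WT samples (blue) and the 3 Slc6a4-/- samples (orange); marker shapes give the sample number, thick lines the mean and thin lines the SD, drawn no lower than 0. WT sample 1 (blue circle) is the lowest WT sample for 9 genes and lies within or beside the Slc6a4-/- values for several of them.

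Where the genes lie gives part of their relation. Positions are those of GENCODE M21 on GRCm38, the build of the files. Gm14744 (chrX:77864758-77870033, plus strand), Obp1a (chrX:78085505-78091374, minus strand), Obp1b (chrX:78186777-78192292, plus strand) and Gm14743 (chrX:78240462-78245921, minus strand) lie within 381 kb of the X chromosome. That stretch holds 6 protein-coding genes, of which these 4 were in the table. Bpifa1 (chr2:154142880-154149219), Bpifb9a (chr2:154257854-154271245) and Bpifb9b (chr2:154307227-154320646) lie on the plus strand within 178 kb of chromosome 2, a stretch with 6 protein-coding genes of which these 3 were in the table. Obp2a (chr2:25700043-25703326, plus strand) lies far from that cluster on the same chromosome. Muc5b (chr7:141839070-141873084) and Cyp2g1 (chr7:26808892-26821205), both on the plus strand, lie on chromosome 7.

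Some members are close copies, and short reads cannot always be placed between them. Transcripts were therefore cut into windows of 75 bases, and windows found letter for letter in a transcript of another gene were counted. Obp1b shared 475 of 723 windows (65.7%) with Gm14743, which are 69.3% of the windows of Gm14743. Bpifb9a and Bpifb9b shared 1227 windows, 54.0% of those of Bpifb9a and 61.6% of those of Bpifb9b. Gm14744 shared 56.3% of its windows with genes outside the members, mainly 5430402E10Rik (333 windows), its neighbour in the X cluster. Obp1a, Bpifa1 and Muc5b shared none, Obp2a shared 56 of 670 and Cyp2g1 57 of 2068. Reads of Obp1b and Gm14743, and of Bpifb9a and Bpifb9b, are thus uncertain as to which copy they came from, and their sums are given beside the single values.

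**Figure D2:**
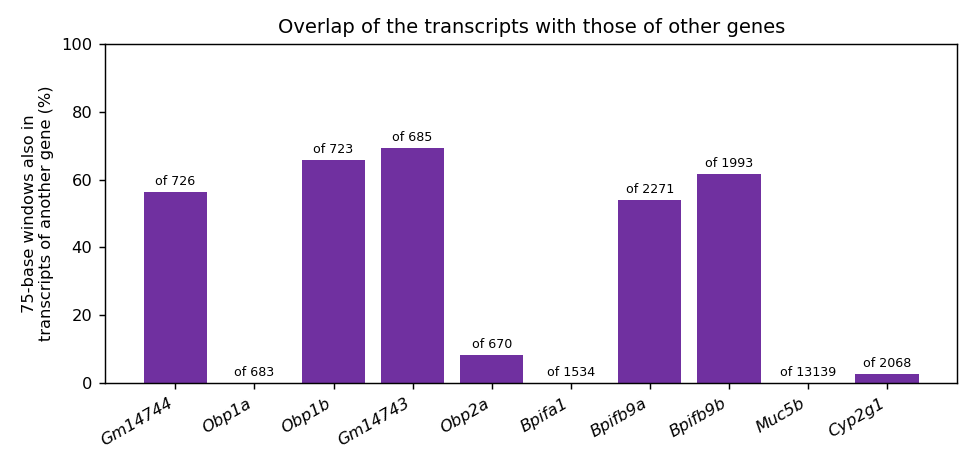
Share of the 75-base windows of each gene's transcripts (vertical axis, percent) that also occur in transcripts of another gene; the number above each bar is the count of windows of that gene. Gm14744, Obp1b, Gm14743, Bpifb9a and Bpifb9b stand above 50%, the other 5 genes below 10%.

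The promoters are shown because some members lie in clusters and some are copies of each other. Shared control of these genes was not tested. RefSeq windows of GRCm38.p6 were at hand for 8 of the 10 members, all but Muc5b and Cyp2g1. These windows run past the annotated start, and only the 250 bases before the start were searched. The motif searched was TATAAA, the core of the TATA box. It was found on the strand of the gene for 7 of the 8, each time within the last 100 bases before the start. Its first base lay 29 (Bpifa1), 30 (Obp1a), 47 (Bpifb9b), 54 (Bpifb9a), 61 (Obp1b and Obp2a) and 70 (Gm14743) bases before the RefSeq start. For Obp1b, Obp2a, Bpifb9a and Bpifb9b the RefSeq start lies inside the GENCODE positions given above. Their motif is therefore nearer to the GENCODE start than these distances say. Of all 32851 RefSeq promoter windows 7.59% held it on the strand of the gene, and 3.8% held it there within the last 100 bases. On the other strand 6.26% of the windows held it, and no member did. For these 7 genes 80 bases are printed from 60 bases before the motif, in lower case with the motif in capitals, 5′ to 3′ on the strand of the gene. A match describes the letters and not a site in use.
Obp1a, chrX:78091385-78091464: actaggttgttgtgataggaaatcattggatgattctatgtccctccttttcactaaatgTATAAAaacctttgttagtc
Obp1b, chrX:78186687-78186766: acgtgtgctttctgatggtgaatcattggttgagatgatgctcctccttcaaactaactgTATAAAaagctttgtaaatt
Gm14743, chrX:78245972-78246051: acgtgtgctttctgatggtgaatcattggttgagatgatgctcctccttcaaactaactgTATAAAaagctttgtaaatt
Bpifb9a, chr2:154257765-154257844: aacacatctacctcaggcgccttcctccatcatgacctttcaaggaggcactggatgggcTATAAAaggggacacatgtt
Bpifb9b, chr2:154307137-154307216: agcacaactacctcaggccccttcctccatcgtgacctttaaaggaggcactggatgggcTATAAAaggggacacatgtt
Bpifa1, chr2:154142791-154142870: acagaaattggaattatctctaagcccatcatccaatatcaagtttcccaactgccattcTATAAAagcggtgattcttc
Obp2a, chr2:25699953-25700032: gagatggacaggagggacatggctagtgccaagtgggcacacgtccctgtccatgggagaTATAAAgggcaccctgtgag

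Obp1b and Gm14743 had the same letters at all 80 positions. Their whole windows, with the bases past the annotated start, shared an unbroken run of 291 bases. Bpifb9a and Bpifb9b were identical at 75 of 80 positions (93.8%). Obp1a was identical to Obp1b and to Gm14743 at 55 of 80 (68.8%), and every other pair was identical at 28 of 80 positions or fewer. Gm14744 had no TATAAA in the 250 bases searched.

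Obp1a and Obp1b, the classical odorant-binding proteins of nasal mucus, had the largest SDs among WT samples in scaled counts. Obp1a had 9, 33 and 55 reads in WT, and 15, 7 and 8 reads in Slc6a4-/-. WT sample 1 lay within the range of Slc6a4-/-, so the groups overlapped. The scaled mean was 34.1 ± 24.0 (SD, n = 3) in WT and 9.3 ± 3.5 in Slc6a4-/-, a log2 difference of -1.51 (SE 0.66). Obp1b had 21, 46 and 73 reads in WT and 31, 11 and 13 in Slc6a4-/-. Here Slc6a4-/- sample 1 exceeded WT sample 1, and the other 2 Slc6a4-/- samples lay below every WT sample. Its scaled mean was 49.3 ± 26.8 (SD, n = 3) in WT and 17.0 ± 9.2 in Slc6a4-/-, a log2 difference of -1.45 (SE 0.55).

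Gm14743, the near copy of Obp1b, had 2, 11 and 26 reads in WT and 0, 0 and 3 in Slc6a4-/-. In WT it followed the order of Obp1b, with sample 3 highest and sample 1 lowest. Per read of library its 39 WT reads against 3 Slc6a4-/- reads gave a ratio of 14.7, with a 95% counting interval of 4.68 to 74.4 that leaves out the spread between pools. Summed with Obp1b it gave 23, 57 and 99 reads in WT and 31, 11 and 16 in Slc6a4-/-, so the groups overlapped for the sum as they did for each copy. The scaled sum was 63.0 ± 39.5 (SD, n = 3) in WT and 18.0 ± 8.7 in Slc6a4-/-, 3.5-fold lower.

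Gm14744, a gene model at the far end of the X cluster, did not overlap between genotypes. It had 19, 37 and 38 reads in WT and 13, 14 and 6 in Slc6a4-/-. WT sample 1 was again the lowest WT sample, but stayed above all Slc6a4-/- samples. The scaled mean was 33.2 ± 10.6 (SD, n = 3) in WT and 10.2 ± 3.6 in Slc6a4-/-, a log2 difference of -1.61 (SE 0.43). Part of its reads may belong to 5430402E10Rik, which was not among the genes of the table.

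Obp2a, an odorant-binding lipocalin encoded outside the X cluster, departed from the other members in its order among WT samples. It had 18, 46 and 14 reads in WT and 17, 9 and 5 in Slc6a4-/-. WT sample 3, the highest WT sample for 7 members, was the lowest for this gene, and lay just below Slc6a4-/- sample 1 after scaling (14.7 against 15.0). The scaled mean was 27.6 ± 18.0 (SD, n = 3) in WT and 9.5 ± 5.1 in Slc6a4-/-, a log2 difference of -1.38 (SE 0.57). Without WT sample 2 the WT values left were 19.9 and 14.7, close to the 15.0 of Slc6a4-/- sample 1.

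Bpifa1, which encodes an abundant protein of nasal and airway lining fluid, had the smallest SD relative to its mean of the 10 genes in WT. It had 19, 34 and 29 reads in WT and 6, 14 and 9 in Slc6a4-/-, without overlap. The scaled mean was 29.0 ± 7.4 (SD, n = 3) in WT and 9.2 ± 3.9 in Slc6a4-/-, a log2 difference of -1.60 (SE 0.42). No window of its transcripts occurred letter for letter in a transcript of another gene. Matches with differing letters were not searched.

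Bpifb9a, also known as vomeromodulin, is a secreted protein of nasal and vomeronasal glands, and Bpifb9b is its close copy. Bpifb9a had 4, 25 and 20 reads in WT and 11, 2 and 0 in Slc6a4-/-, and WT sample 1 lay below Slc6a4-/- sample 1. Bpifb9b had 20, 29 and 42 reads in WT and 13, 5 and 11 in Slc6a4-/-, with no overlap. The order of samples within each genotype differed between the copies, and a difference in their levels and the placing of shared reads cannot be told apart. Their summed reads were 24, 54 and 62 in WT and 24, 7 and 11 in Slc6a4-/-. After scaling the sum was 49.4 ± 20.3 (SD, n = 3) in WT and 13.0 ± 7.5 in Slc6a4-/-, 3.8-fold lower, and the lowest WT value of 26.5 stood above the highest Slc6a4-/- value of 21.2. The log2 differences of the single copies were -2.24 (SE 1.02) for Bpifb9a and -1.75 (SE 0.46) for Bpifb9b.

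Muc5b encodes a gel-forming mucin, the scaffold of airway mucus. It had 11, 17 and 44 reads in WT and 8, 12 and 7 in Slc6a4-/-. The groups did not overlap after scaling, though the lowest WT value of 12.1 and the highest Slc6a4-/- value of 11.2 were less than 1 scaled read apart, and the unscaled reads of WT sample 1 and Slc6a4-/- sample 2 were in the other order. Its scaled mean was 25.4 ± 18.3 (SD, n = 3) in WT and 8.5 ± 2.3 in Slc6a4-/-, a log2 difference of -1.29 (SE 0.54). With an exon length of 14964 bases it was the longest member, so its level per length was the lowest of the 10.

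Cyp2g1 encodes a cytochrome P450 enzyme known from the olfactory mucosa, where Bowman's glands and supporting cells break down inhaled compounds. It had 1, 10 and 11 reads in WT and 1, 2 and 3 in Slc6a4-/-. WT samples 2 and 3 were high, whereas WT sample 1 was as low as the Slc6a4-/- samples. The scaled mean was 7.7 ± 5.7 (SD, n = 3) in WT and 1.9 ± 1.1 in Slc6a4-/-, a log2 difference of -1.26 (SE 0.81). Every gene of the table had at least 10 reads in 2 samples of 1 genotype, and Cyp2g1, with WT samples at 10 and 11, was just inside that limit. Of the 10 members 7 reached it through WT alone, while Obp1b, Gm14744 and Bpifb9b reached it in both genotypes. A member that entered through WT alone had to be higher there.

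Levels between genes were compared only per length, as reads per kb of exon per M reads, averaged over samples of a genotype. In WT the order was Obp1b (0.745), Obp1a (0.542), Gm14744 (0.499), Obp2a (0.446), Bpifa1 (0.226), Gm14743 (0.217), Bpifb9b (0.187), Bpifb9a (0.091), Cyp2g1 (0.0432) and Muc5b (0.0204). The WT ranges of every pair of neighbours in this order overlapped. Compared within each library, Obp1b stood above Obp1a and Bpifb9b above Bpifb9a in all 6 samples. Obp2a stood above Bpifa1 in all 6 as well, though only by 0.238 against 0.237 in WT sample 3. The other neighbours changed places between samples. The 4 highest means were all of lipocalins. In Slc6a4-/- the same 4 genes were highest, led by Obp1b (0.256), and Muc5b was again lowest (0.0068). Gm14743, at 0.0162 in Slc6a4-/-, was below both Bpifb9 copies there. In the deposited RPKM values, which are means of whichever genotype had more, the members ranged from 0.02 to 0.75, and 476 of the 701 genes stood above the highest of them.

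The 10 genes summed show the level of each pool with less counting error than any gene alone. They had 124, 288 and 352 reads in WT and 115, 76 and 65 in Slc6a4-/-. Per M reads of library this was 1.65 (95% exact Poisson interval 1.37 to 1.96), 3.62 (3.22 to 4.07) and 4.45 (4.0 to 4.94) in WT. In Slc6a4-/- it was 1.22 (1.01 to 1.47), 0.851 (0.671 to 1.07) and 0.798 (0.616 to 1.02). No Slc6a4-/- sample reached a WT sample, yet the counting intervals of WT sample 1 and Slc6a4-/- sample 1 overlapped, and these values differed by only 1.35-fold. WT sample 3 was 2.71-fold above WT sample 1, and their counting intervals did not overlap. Among the Slc6a4-/- samples the highest was 1.53-fold above the lowest. All these values rest on the library sizes of the fit used. By the fit first planned Slc6a4-/- sample 1 had 137.8 M reads and Slc6a4-/- sample 3 had 46.6 M. The order of the Slc6a4-/- samples, and which of them came nearest to WT sample 1, changes with that choice.

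The mean of the sum was 3.24 ± 1.44 reads per M reads (SD, n = 3) in WT and 0.958 ± 0.232 in Slc6a4-/-, a 3.38-fold difference. Leaving out WT sample 1 gave 4.22-fold and leaving out WT sample 3 gave 2.75-fold. Without Slc6a4-/- sample 1 it was 3.93-fold. By the means it was 3.47-fold for the X-linked and 3.31-fold for the autosomal members, and 3.36-fold for the lipocalins and 3.54-fold for the BPI-fold genes. Mice of both sexes were used in the study, and how many of each a pool held is not given in the sources used here.

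**Figure D3:**
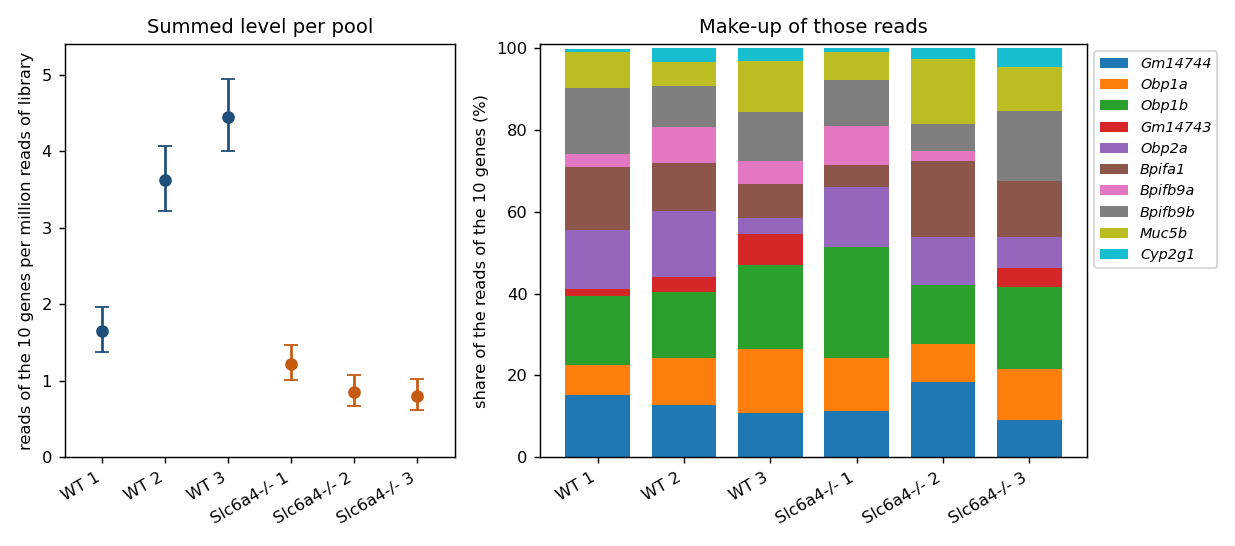
Left, reads of the 10 secretion genes per M reads of library (vertical axis) in each of 6 samples, with 95% exact Poisson intervals for counting error; right, the share of those reads from each gene (percent). WT samples 2 and 3, at 3.62 and 4.45, stand apart from the other 4 samples, which lie between 0.798 and 1.65, and the share of Obp2a is smallest, at 3.98%, in WT sample 3.

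The make-up of these reads was compared as shares of the summed reads, with 95% Wilson intervals. Obp1b had the largest share or tied for it in WT, with 16.9% (11.4 to 24.5), 16.0% (12.2 to 20.6) and 20.7% (16.8 to 25.3), and from 14.5% (8.28 to 24.1) to 27.0% (19.7 to 35.7) in Slc6a4-/-. Obp2a was the exception among the larger members, at 14.5% (9.38 to 21.8) and 16.0% (12.2 to 20.6) in WT samples 1 and 2 but 3.98% (2.38 to 6.56) in WT sample 3, where its interval lay below those of both other WT samples. Muc5b made up 5.90% (3.72 to 9.25) in WT sample 2 and 12.5% (9.44 to 16.4) in WT sample 3, with intervals that did not meet. For the other 8 genes the intervals of the WT samples overlapped. The 4 X-linked genes together gave 41.1% to 54.5% of the reads in WT and 42.1% to 51.3% in Slc6a4-/-.

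The members also went together across the 6 samples. The Pearson correlation of each gene with the mean of the other 9, on log2(scaled count + 1), ranged from 0.66 for Obp2a to 0.95 for Obp1a. These correlations include the genotype difference that chose the genes. Among the 3 WT samples alone Obp2a gave 0.04 and the other 9 genes 0.76 to 0.99, which describes 3 points that share the same libraries. WT sample 1 was the lowest WT sample for 9 members, and the highest of all 6 samples was WT sample 3 for 7 and WT sample 2 for 3. For 9 members all Slc6a4-/- samples lay below both WT samples 2 and 3, the exception being Obp2a. WT sample 1 lay below the highest Slc6a4-/- sample for 5 members. The shares of all 701 genes were not computed for these counts of members, so nothing is read from them.

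Single genes of low count moved with single samples. With 1 sample left out in turn, all values of the 10 genes stayed below 0 and ranged from -3.56 to -0.76 on the log2 scale. The sign itself is not read as a result, because the genes were chosen on these same samples. Without WT sample 1 the difference of Gm14743 was -3.56 and that of Cyp2g1 -2.10, and without WT sample 3 they were -1.99 and -0.81. Obp1a stood at -2.20 with WT sample 1 removed and at -0.99 with WT sample 3 removed. For Bpifb9a the difference was -3.13 without Slc6a4-/- sample 1 and -1.42 without Slc6a4-/- sample 3. Without WT sample 3 Muc5b was at -0.76, and without WT sample 2 Obp2a was at -0.90. The order of the members by size of difference is thus not settled by these samples.

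Genes with similarly few reads also differed widely in this table. Of 88 genes with a mean of at most 32.5 reads, 78 were not members, and among these 18 were lower and 60 higher in Slc6a4-/-. The median size of their log2 difference was 1.36, against 0.44 for the 613 genes with more reads. The 18 lower ones had a median of -1.33, and 16 of them were at least 2-fold lower. The members' median of -1.56 stood near that of these other lower genes with few reads.

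**Figure D4:**
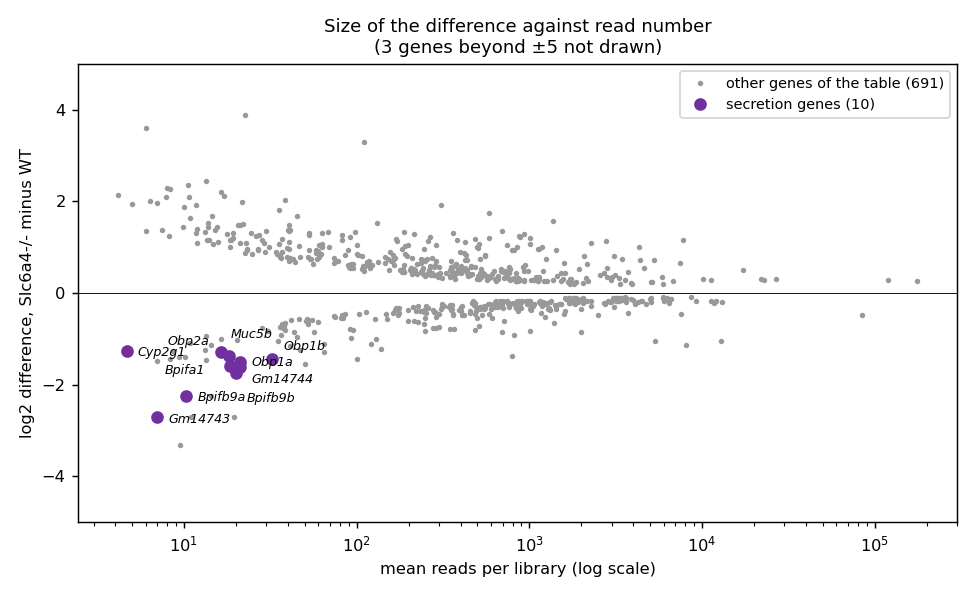
Log2 difference between Slc6a4-/- and WT (vertical axis) against mean reads per library (horizontal log axis) for the 701 genes of the table, with the 10 secretion genes in purple and 3 genes beyond the axis left out. The members sit at the low end of read number and below 0, and the empty band around 0, which the selection of the table left, widens toward low counts.

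Other genes of secretions were rarely in the table. Of 52 further genes of nasal, lacrimal, salivary and airway secretions fixed as a list 4 were listed, 2 lower and 2 higher in Slc6a4-/-, with a median log2 difference of 0.21. Chia1, an acidic chitinase of glands and stomach, had 8, 18 and 13 reads in WT and 4, 11 and 2 in Slc6a4-/-, with the low read numbers and the low WT sample 1 of the members. Clca1, a secreted protein of mucous cells, differed little, at a scaled 309.1 ± 33.2 (SD, n = 3) in WT and 245.0 ± 78.9 in Slc6a4-/-. Lcn2, a lipocalin of stressed and inflamed tissue that reactive retinal glia also make, ran the other way, at 347.4 ± 192.2 in WT and 636.3 ± 168.9 in Slc6a4-/-. The intestinal mucin Muc2 was also higher, at 106.8 ± 27.8 in WT and 182.5 ± 22.3 in Slc6a4-/-. The other 48 genes, Bpifb1 and Obp2b among them, were not among the genes of the table, which does not say whether they had reads.

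Apart from the member Cyp2g1, markers of olfactory mucosa and olfactory neurons, such as Omp and Cnga2, were not in the table for any of 18 genes. Absence from a table selected by genotype difference does not say whether they had reads. Ciliated cell markers were there for 2 of 14, and they went apart: Foxj1, the master regulator of motile cilia, was lower in Slc6a4-/- (96.8 ± 9.6 in WT and 69.2 ± 11.8 in Slc6a4-/-, scaled, n = 3), and Morn5 was higher (1, 3 and 2 reads in WT and 10, 18 and 16 in Slc6a4-/-). Of 24 markers of surface epithelium and keratinocytes 8 were in the table, 3 lower and 5 higher in Slc6a4-/-, with a median of 0.65. Lower were Spint1 and the keratin genes Krt6a and Krt23. Krt6a had most of its WT reads in sample 1 (52, 11 and 7 reads), the WT sample with the fewest reads of the secretion genes. Krt23 had 12, 8 and 11 reads in WT and 5, 4 and 2 in Slc6a4-/-. Spint1 had 46, 75 and 53 reads in WT and 38, 63 and 30 in Slc6a4-/-. Higher were Scel, Ppl, Tmprss11e, Cldn1 and Dsg1a, genes of the barrier and junctions of epithelium, of which Tmprss11e had 45, 34 and 11 reads in WT and 105, 64 and 60 in Slc6a4-/-.

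Pigment cell genes went against the secretion genes in this table. Of 10 markers 5 were listed (Pmel, Dct, Tyrp1, Mlana and Lrat, genes of melanin-bearing cells and the retinal pigment epithelium), all higher in Slc6a4-/-, with a median log2 difference of 1.06. Their scaled sum was 2249, 1709 and 931.5 in WT samples 1 to 3, the reverse of the order of the secretion genes, and 3409, 3785 and 1993 in Slc6a4-/-. Of the 8 retina markers listed 6 were lower and 2 higher in Slc6a4-/-, with a median log2 difference of -0.19, and they did not share an order among WT samples. Among the WT samples the short-wavelength opsin gene Opn1sw, which is enriched in ventral cones, was lowest in sample 1. Its scaled counts were 5716, 16729 and 12277 in WT and 4596, 3933 and 6176 in Slc6a4-/-. Opn1mw, the gene of the other cone opsin, was highest in sample 1 among the WT samples. It stood at 3081, 2231 and 2810 in WT and 2992, 4349 and 3315 in Slc6a4-/-. Pde6c and Nefl were also highest in WT sample 1 among the WT samples. The 2 haemoglobin genes listed of 5 were higher in Slc6a4-/- by 0.41 (Hbb-bs) and 0.52 (Hbb-bt) on the log2 scale. The part of these tissues in the differences of the secretion genes was not tested.

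**Figure D5:**
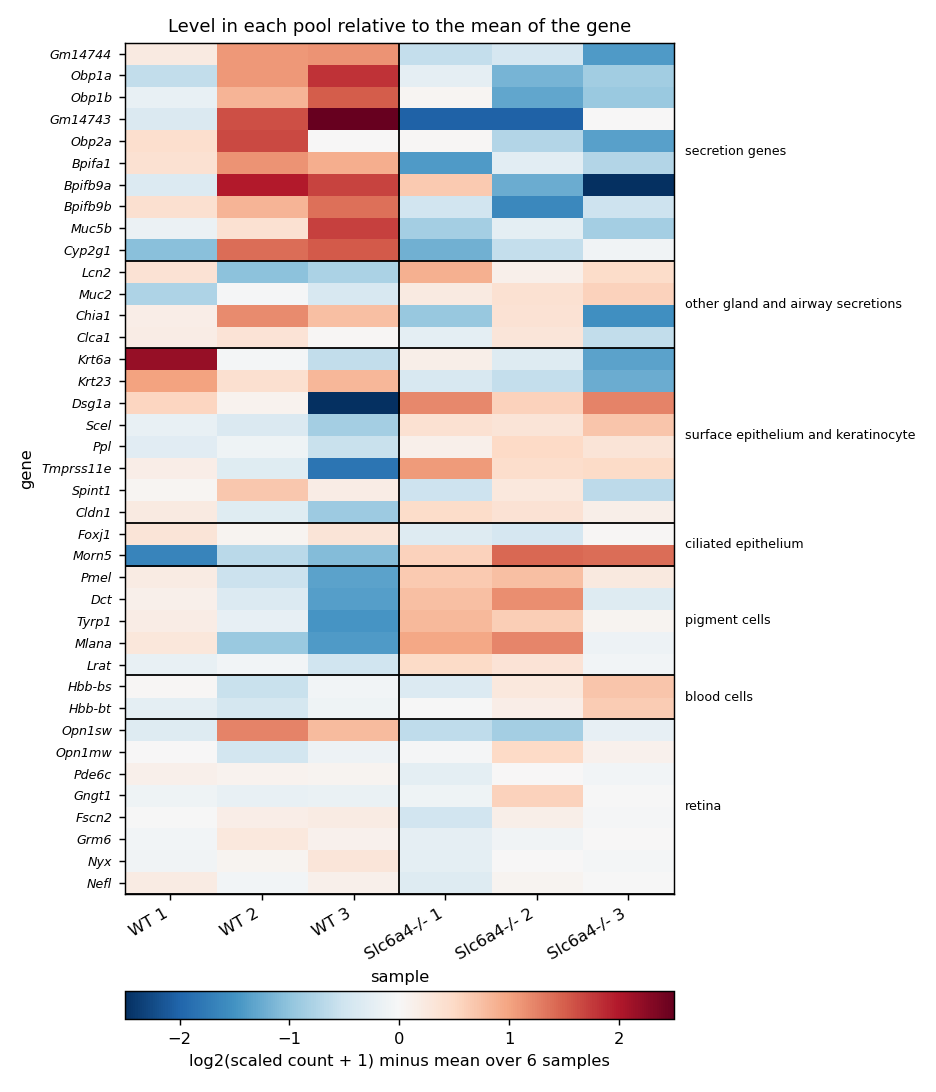
Log2(scaled count + 1) of each gene minus its mean over the 6 samples (colour), for the 10 secretion genes and the genes of 6 marker lists that were in the table, with 1 row per gene and 1 column per sample. Apart from Obp2a in WT sample 3, which lies near its mean, the secretion genes are red in WT samples 2 and 3, and they are mostly blue in Slc6a4-/-, while the pigment cell genes are bluest in WT sample 3.

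The genes whose pattern was most like that of the mean of the 10, by Pearson correlation over 6 samples, were no gland genes. They were Mc4r (0.988), Ebf2 (0.972), Rpp25 (0.961), Pde11a (0.953), Arhgap15 (0.944), Dcx (0.939), Sema7a (0.935), Elavl2 (0.929), Apex2 (0.923) and Scn4a (0.922). All 10 were lower in Slc6a4-/- with no overlap, by 1.13-fold (Apex2) to 2.59-fold (Ebf2), against 167 of the 701 genes (23.8%) without overlap. Likeness to a mean that was itself lower in Slc6a4-/- favours such genes, so nothing is read from this count. Mc4r, a melanocortin receptor of neurons, had 32, 52 and 53 reads in WT and 31, 29 and 28 in Slc6a4-/-. It thus shared the low WT sample 1 with the secretion genes, at a smaller difference between genotypes. Dcx and Elavl2 encode neuronal proteins and had at least 295 reads in every sample. With 6 points and 701 genes to choose from, such likeness is a description of these libraries.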

How the data were processed

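Total RNA of pooled VT retinae was sequenced, with 3 samples per genotype. The authors used the CLC Genomics workbench to align paired reads to GRCm38 and to count them by gene. The deposited counts are raw whole numbers for the 701 genes that the authors selected by p-value on these samples, and 0 columns of other samples were present. Commas in the counts were removed and 25 blank lines skipped. The deposited RPKM is a mean by the authors over samples of whichever genotype had more. The authors' fold changes and p-values were not used.

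Library sizes were estimated from those RPKM values, the counts and GENCODE M21 exon lengths. The genes used were those whose RPKM fitted a single set of library sizes for the samples of the genotype. These were 88 of 178 genes for WT and 76 of 267 for Slc6a4-/-, with an RPKM above 1. The least absolute residual fit that had been planned gave sizes from 46.6 to 137.8 M reads and was replaced after seeing the data. It was kept as an alternative. The file does not say whether a read or a pair was counted. Differences and standard errors came from limma 3.58.1 in R 4.3.3 (lmFit and eBayes with trend) on log2(scaled count + 1) over all 701 genes, with genotype as the only term. No count model was used, because of the written form of the counts.

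The members and lists were chosen with earlier results of these data known. Named genes were the 10 members, Slc6a4, genes of the lists that were in the table, and the 10 genes most like the mean of the members. Deviations of same-numbered samples from the means of their genotypes correlated at 0.25, -0.16 and 0.08, so the numbers were not taken to pair samples. Alternatives were other scalings, pseudocounts of 0.5 and 5, a minimum mean of 10 reads, limma without trend, a replicate block and leaving out each sample.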

Additional observations from a re-analysis of the deposited data

How the results depend on the processing

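The median log2 difference of the 10 genes was -1.56, and it ranged from -1.94 to -1.43 when 1 sample was left out and from -1.71 to -1.26 under the other alternatives. The log2 difference of the summed genes was -1.65, with a range of -2.08 to -1.37 when 1 sample was left out and -1.81 to -1.48 otherwise. All 138 values of single genes under the alternatives stayed below 0, from -3.56 to -0.76 with 1 sample left out. The same contrast on the same samples chose these genes, so nothing is read from the shared sign. A pseudocount of 5 gave -1.42 for Gm14743, -1.31 for Bpifb9a and -0.75 for Cyp2g1. A fit with the replicate block left the median at -1.56 and the sum at -1.65, since the design is balanced. The 4 genes without overlap are counted on the scaled counts and not on a fit, so the block cannot move them. The number of genes without overlap moved most with 1 sample left out, from 4 to 9. It was 9 without WT sample 1 and 8 without Slc6a4-/- sample 1, against 4 or 5 without any other sample. Leaving out a sample can only keep or raise such a number, for any set of genes. The share over all 701 genes was not computed for these settings, so nothing is read from the rise. Without scaling the number was 3, with median-of-ratios factors 5, and with the planned fit of the library sizes 4. A minimum mean of 10 reads removed Gm14743 and Cyp2g1. Reads of 0 to 73 per gene and sample limit all values of single genes, and 3 pools per genotype limit their sum.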
